A study of Homo sapiens with 8 samples.

Results

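The genes described here are 10 members of the ETS family of transcription factors, EHF, ELF3, ELF1, ELF4, ETS1, ETS2, ELK1, ELK3, ETV6 and GABPA, among 19775 genes that have a probe set with exactly 1 gene symbol on the array. They were chosen by name, with earlier results of these data known. Each is described by whichever of its probe sets had the greatest average level on the 8 arrays, called its main probe set, and the others are given beside it. RNA came from HCT116, an established human colorectal carcinoma line, after 10 h with largazole at 20 nM, SAHA at 2 µM, FK228 at 20 nM or the vehicle control. All 3 compounds inhibit histone deacetylases. Largazole is a cyclic depsipeptide with a thioester, SAHA (vorinostat) is a hydroxamic acid and FK228 (romidepsin) is a bicyclic depsipeptide with a disulfide. Each of the 4 groups held 2 arrays of the same line, and the labels call them duplicates without saying whether they were separate cultures, so a p-value here covers the spread between these arrays alone, which may be technical.

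ETS proteins share a DNA-binding domain that reads a GGAA core, and they differ in where they are expressed and in the proteins they bind. EHF and ELF3 belong to the epithelium-specific branch and act in differentiating epithelia. ELF1 and ELF4 are activators of broad or lymphoid expression, and ETS1 and ETS2 are activated through phosphorylation by ERK kinases. ELK1 and ELK3 form the ternary complex with serum response factor, ETV6 is a repressor, and GABPA binds DNA for the GABP complex, whose other subunit comes from GABPB1 or GABPB2. Histone deacetylase inhibitors raise histone acetylation and change the transcript levels of many genes in both directions.

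Levels are log2 probe set values as the authors deposited them, with medians of 4.47 to 4.51 per array and a full range of 1.71 to 14.67. Arrays of a group correlated at 0.995 to 0.997 over all probe sets. A probe set was tested when at least 2 of the 8 arrays read 4.49 or more, the overall median, and a change was called at a limma adjusted p under 0.05. The 10 genes have 31 probe sets, of which 20 passed this filter. The main probe set of each gene passed, and for every gene but EHF it read above 4.49 on all 8 arrays. All 10 colorectal epithelial markers had a tested probe set, EPCAM at 12.42 with largazole, 12.34 with SAHA, 12.12 with FK228 and 12.58 with vehicle, and KRT18 at 12.84, 12.89, 12.83 and 12.83 in that order. Some epithelial markers were called against vehicle. CDH1 was higher by 0.74 with largazole, 0.78 with SAHA and 0.69 with FK228, and KRT19 by 0.37 with largazole and 0.47 with SAHA. CLDN7 was higher by 0.40 with SAHA and 0.36 with FK228. CDX2 was lower, at -0.82 with largazole and -0.90 with SAHA, and EPCAM at -0.46 with FK228 (adjusted p = 0.0296). The other 5 were not called with any compound. Among them KRT20, VIL1 and CDX1 read low. KRT20 passed the filter through its largazole arrays alone, at 4.55 and 4.60, against 4.07 and 3.80 with vehicle. VIL1 read 4.39 to 4.73 and CDX1 5.19 to 5.57 over the 8 arrays. The KRT8 and KRT18 probe sets have names ending in _x_at, which marks probes that can match other transcripts. None of the 7 leukocyte markers with a probe set passed. Of 8 fibroblast or endothelial markers 4 passed. COL1A1 was called higher with each compound and stood at 8.40 with largazole, 7.85 with SAHA, 7.73 with FK228 and 7.13 with vehicle, while the other fibroblast collagens, COL1A2 and COL3A1, did not pass. The summed log2 level of the epithelial list was 89.1 and 89.9 with largazole, 89.1 and 89.5 with SAHA, 87.8 and 89.3 with FK228, and 88.3 and 87.9 with vehicle. That of the fibroblast or endothelial list was 35.3 and 35.4 with largazole, 35.6 and 34.3 with SAHA, 35.3 and 34.7 with FK228, and 34.1 and 35.0 with vehicle. The part of these markers in the results was not tested.

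Promoter sequences are shown for EHF, ELF3 and GABPA. EHF is the member with the largest change, and ELF3 is the other member from the epithelial branch. GABPA is the only member with the searched ETS motif in the windows available. The sequences are RefSeq windows of 300 bases in GRCh38.p14, mostly upstream of each gene start, on the plus strand. EHF has 2 annotated starts. Capitals mark the motif matches described after the sequences.
EHF, upstream start, chr11:34624007-34624306: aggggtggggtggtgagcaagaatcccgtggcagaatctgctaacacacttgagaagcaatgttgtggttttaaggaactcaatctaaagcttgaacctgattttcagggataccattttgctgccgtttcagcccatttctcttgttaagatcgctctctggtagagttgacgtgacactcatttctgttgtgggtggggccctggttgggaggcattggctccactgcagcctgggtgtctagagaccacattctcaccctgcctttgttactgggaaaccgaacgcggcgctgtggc
EHF, downstream start, chr11:34632316-34632615: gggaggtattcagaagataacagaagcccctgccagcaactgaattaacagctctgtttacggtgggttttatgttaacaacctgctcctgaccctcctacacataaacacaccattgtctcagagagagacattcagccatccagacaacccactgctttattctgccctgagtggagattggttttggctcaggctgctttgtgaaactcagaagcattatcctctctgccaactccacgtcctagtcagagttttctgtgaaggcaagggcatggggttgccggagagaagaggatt
ELF3, chr1:202010337-202010636: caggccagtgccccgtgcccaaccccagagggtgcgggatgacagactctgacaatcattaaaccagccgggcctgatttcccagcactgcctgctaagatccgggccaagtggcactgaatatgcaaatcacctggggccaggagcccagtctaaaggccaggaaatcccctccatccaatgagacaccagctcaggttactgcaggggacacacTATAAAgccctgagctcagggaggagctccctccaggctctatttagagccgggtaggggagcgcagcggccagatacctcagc
GABPA, chr21:25734722-25735021: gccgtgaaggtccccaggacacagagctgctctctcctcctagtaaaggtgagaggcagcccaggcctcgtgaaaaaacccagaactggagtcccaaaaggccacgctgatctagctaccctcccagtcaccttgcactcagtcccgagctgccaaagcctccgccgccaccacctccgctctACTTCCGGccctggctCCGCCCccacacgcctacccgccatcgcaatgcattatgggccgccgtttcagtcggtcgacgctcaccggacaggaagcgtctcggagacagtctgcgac

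The motifs searched, on both strands, were an ETS motif, spelled CCGGAAGT, the TATA box, spelled TATAAA, the GC box motif, spelled GGGCGG, and the AP-1 motif, spelled TGACTCA. None of them overlapped another in the sequences shown. Promoters were available for 9 of the 10 genes, 16 in all. In the GABPA promoter the ETS motif stood at position -67 and a GC box at -51, both read on the opposite strand. ELF3 held TATAAA at -34, and neither EHF promoter held any of the 4 motifs. Among all 35116 promoters of that length, 4.14% held CCGGAAGT, 11.5% TATAAA, 45.0% GGGCGG and 4.95% TGACTCA. The ETS motif was in 1 of the 16 member promoters, TATAAA in 2, GGGCGG in 7 and TGACTCA in 1. These matches describe the letters in the window.

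With FK228, 8 of the 10 genes fell, ETS1 rose and ELK1 was not called. With SAHA 5 fell, and with largazole 4 fell. ETS1 rose with each compound. EHF, ELF3, ELF4 and ETS2 were lower with all 3 compounds. Over all 13381 genes tested, 27.1% were called lower and 25.7% higher with FK228, 25.2% and 22.1% with SAHA, and 23.2% and 21.9% with largazole. The members called in either direction were 5 of 10 with largazole, beside 45.2% of all genes, and 6 of 10 with SAHA, beside 47.4%. With FK228 they were 9 of 10, beside 52.8%. All 10 members also passed a stricter filter value of 6.87, EHF through its vehicle arrays alone and ETS1 through treated arrays alone. ELF4 reached that value on its vehicle arrays and, barely, on a SAHA array. The calls of EHF, ETS1 and ELF4 there add no support. The members' counts at that value were again 5, 6 and 9. Of the 8759 genes tested at that value, 5462 were called with largazole, 5725 with SAHA and 6090 with FK228. Beside these larger shares the members were not above background with largazole or SAHA, and the FK228 contrast was smaller. The members' median log2 difference was -0.29 with largazole, -0.49 with SAHA and -0.91 with FK228, while that of all tested genes was 0.0016, -0.019 and 0.013. The 3 comparisons share their vehicle arrays.

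**Figure D1:**
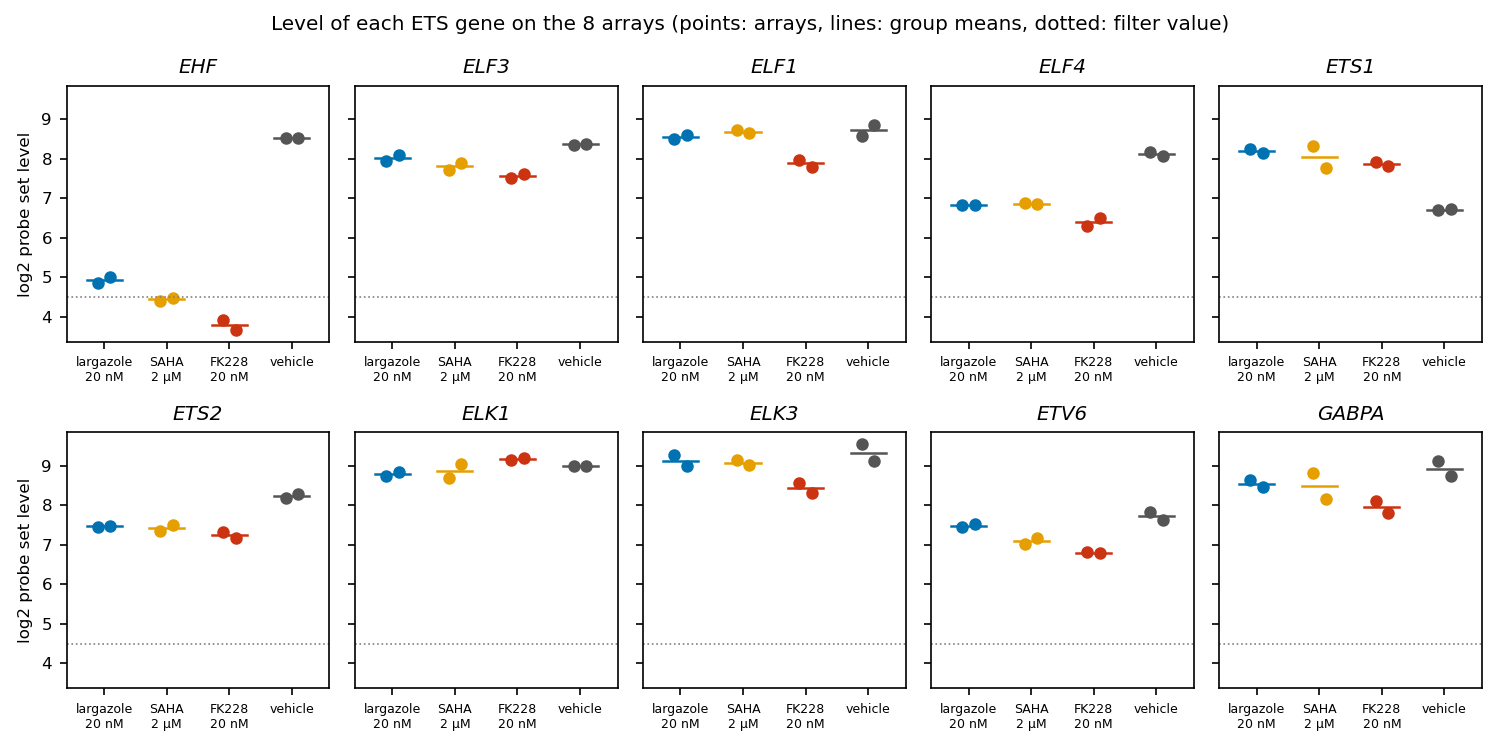
Log2 level (vertical axis) of the main probe set of each ETS gene on the 8 arrays, by group (horizontal axis). Points are arrays, lines are means of 2 arrays and the dotted line is the filter value of 4.49. EHF lies between 3.66 and 5.01 on the 6 treated arrays and at 8.53 and 8.52 with vehicle, and ETS1 is higher on every treated array.

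EHF encodes an ETS factor of epithelial cells. Its level was 4.87 and 5.01 with largazole, 4.40 and 4.48 with SAHA and 3.91 and 3.66 with FK228, against 8.53 and 8.52 with vehicle. No treated array came near the vehicle arrays, and both SAHA and FK228 arrays lay under the filter value of 4.49, so the size of these falls is less certain. The log2 difference from vehicle was -3.59 ± 0.106 with largazole (SE, n = 2 arrays each, adjusted p = 3.02e-06), a 12.02-fold lower level. It was -4.08 ± 0.106 with SAHA (adjusted p = 2.32e-06), or 17.0-fold lower, and -4.74 ± 0.106 with FK228 (adjusted p = 6.57e-07), or 26.7-fold lower. Such large falls were rare. Of all genes tested, 6 had a lower value than EHF with largazole, 5 with SAHA and 6 with FK228. In whole cultures, fewer cells of a type and less RNA per cell cannot be told apart.

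EHF has 5 further probe sets, all with lower means. The second was tested through its vehicle arrays alone, at 3.99 and 4.06 with largazole, 3.95 and 3.58 with SAHA and 3.91 and 3.46 with FK228, against 4.56 and 4.52 with vehicle. It passed the filter only through the group where it was high, so its calls add no support. The other 4 were not tested and stood at 2.32 to 4.46 on all arrays. On one of these the level was 2.57 and 2.72 with largazole, 2.65 and 2.68 with SAHA and 2.56 and 2.46 with FK228, against 3.64 and 3.72 with vehicle. On another it was 2.40 and 2.72 with largazole, 2.70 and 2.66 with SAHA and 2.32 and 2.66 with FK228, against 3.53 and 3.76 with vehicle. Treated arrays were lower than vehicle arrays on both, at levels under the filter value. Of the remaining 2, one differed by -0.55 with largazole, -0.76 with SAHA and -0.44 with FK228. The other differed by -0.22, -0.12 and -0.21 in that order, and its largazole and SAHA arrays overlapped the vehicle arrays. With all 6 probe sets averaged, the difference of EHF was -1.17 with largazole, -1.29 with SAHA and -1.43 with FK228.

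ELF3, the other factor of the epithelial branch, was at 7.96 and 8.09 with largazole, 7.73 and 7.90 with SAHA and 7.51 and 7.63 with FK228, against 8.36 and 8.38 with vehicle on its main probe set. All treated arrays lay below both vehicle arrays. The log2 difference was -0.34 ± 0.0982 with largazole (SE, n = 2, adjusted p = 0.0252), -0.55 ± 0.0982 with SAHA (adjusted p = 0.00275) and -0.80 ± 0.0982 with FK228 (adjusted p = 0.000326). The probe sets of ELF3 disagreed in size. On the second the level was 6.21 and 6.22 with largazole, 6.50 and 6.75 with SAHA and 6.14 and 5.97 with FK228, against 7.38 and 7.59 with vehicle. The differences there were -1.27 ± 0.120, -0.86 ± 0.120 and -1.43 ± 0.120 in the same order (adjusted p = 0.000147, 0.000803 and 4.76e-05). On the third they were -1.23 ± 0.0856, -0.998 ± 0.0856 and -1.66 ± 0.0856 (adjusted p = 3.85e-05, 8.17e-05 and 5.88e-06). The direction was the same on all 3 probe sets, and with each compound the fall was larger on the other probe sets than on the main one. With all 3 averaged the difference was -0.95 with largazole, -0.80 with SAHA and -1.30 with FK228. On the main probe set the largazole call ended when largazole replicate 1 was left out (adjusted p = 0.150). It also ended when either vehicle array was left out, replicate 1 at 0.0802 and replicate 2 at 0.101, and with no filter at 0.0631.

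**Figure D2:**
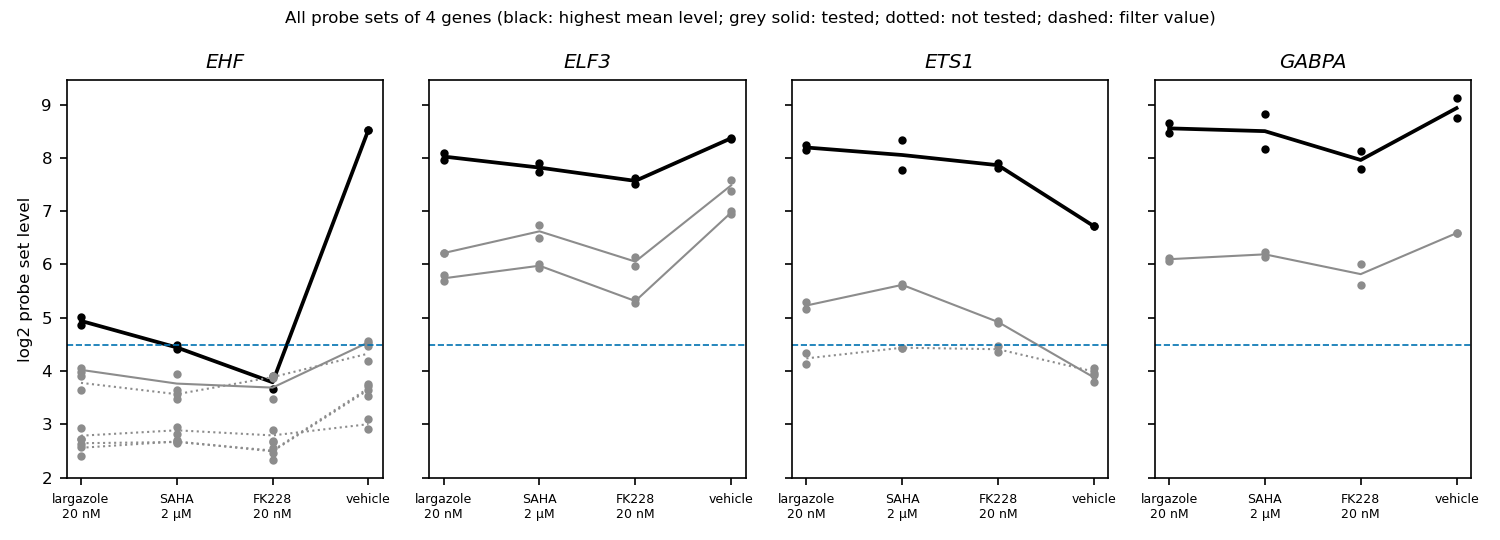
Log2 level (vertical axis) of every probe set of EHF, ELF3, ETS1 and GABPA by group (horizontal axis). Points are arrays and each line joins the group means of 1 probe set, black for the main one, grey solid for others tested and dotted for those not tested. The 3 ELF3 probe sets all lie lower on treated arrays, and the 5 lower EHF probe sets lie at or under 4.56 everywhere.

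ELF4, an activator best known in lymphoid cells, was at 6.83 and 6.84 with largazole, 6.88 and 6.85 with SAHA and 6.30 and 6.51 with FK228, against 8.17 and 8.08 with vehicle. The treated arrays were well below the vehicle arrays. Its log2 difference was -1.29 ± 0.0943 with largazole (SE, n = 2, adjusted p = 4.80e-05), -1.27 ± 0.0943 with SAHA (adjusted p = 4.45e-05) and -1.72 ± 0.0943 with FK228 (adjusted p = 7.36e-06), or 2.44, 2.40 and 3.30-fold lower. On its second probe set the vehicle arrays stood apart from each other, at 7.50 and 6.60. There the differences were -0.95 ± 0.282 with largazole (adjusted p = 0.0286), -0.80 ± 0.282 with SAHA (adjusted p = 0.0527) and -1.21 ± 0.282 with FK228 (adjusted p = 0.00839).

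ELF1, a widely expressed activator, gave another pattern. Its level was 8.50 and 8.61 with largazole, 8.73 and 8.65 with SAHA and 7.98 and 7.80 with FK228, against 8.59 and 8.86 with vehicle. Only with FK228 did both arrays lie below both vehicle arrays, with a difference of -0.83 ± 0.117 (SE, n = 2, adjusted p = 0.000671). The difference was -0.17 with largazole (95% confidence interval -0.44 to 0.11, adjusted p = 0.305) and -0.04 with SAHA (-0.31 to 0.24, adjusted p = 0.835). The second probe set read 8.19 and 8.06 with largazole, 8.24 and 8.07 with SAHA and 7.09 and 7.15 with FK228, against 8.27 and 8.21 with vehicle. It fell by 1.12 ± 0.0955 with FK228 (adjusted p = 5.09e-05) and was not called with largazole (adjusted p = 0.390) or SAHA (adjusted p = 0.521).

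ETS1, the founding member of the family and a factor linked to invasion, was the only member that rose. Its level was 8.24 and 8.15 with largazole, 8.33 and 7.78 with SAHA and 7.91 and 7.81 with FK228, against 6.71 and 6.72 with vehicle. All treated arrays were above the vehicle arrays, and the SAHA arrays differed from each other by 0.56. The log2 difference was 1.48 ± 0.164 with largazole (SE, n = 2, adjusted p = 0.000305), 1.34 ± 0.164 with SAHA (adjusted p = 0.000432) and 1.14 ± 0.164 with FK228 (adjusted p = 0.000723), or 2.78, 2.52 and 2.21-fold higher. On the second probe set the level was 5.16 and 5.30 with largazole, 5.60 and 5.64 with SAHA and 4.94 and 4.90 with FK228, against 3.97 and 3.79 with vehicle, so it passed the filter through treated arrays alone. The differences there were 1.35, 1.74 and 1.04. The third probe set was not tested and stood at 3.92 to 4.47.

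ETS2, its closest relative, moved the other way. It was at 7.46 and 7.49 with largazole, 7.35 and 7.50 with SAHA and 7.33 and 7.16 with FK228, against 8.18 and 8.29 with vehicle. The treated arrays lay close together and below the vehicle arrays. The log2 difference was -0.76 ± 0.0987 with largazole (SE, n = 2, adjusted p = 0.000647), -0.81 ± 0.0987 with SAHA (adjusted p = 0.000424) and -0.99 ± 0.0987 with FK228 (adjusted p = 0.000113). The second tested probe set gave -0.87, -0.89 and -1.10 in the same order, each called, and the third stood at 2.38 to 2.56 and was not tested.

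ELK1 and ELK3 join serum response factor on the promoters of immediate-early genes, ELK1 as an activator and ELK3 as a repressor until it is phosphorylated. ELK1 was at 8.75 and 8.85 with largazole, 8.69 and 9.04 with SAHA and 9.16 and 9.19 with FK228, against 8.99 and 8.99 with vehicle. It was not called with any compound. The difference was -0.19 with largazole (95% confidence interval -0.47 to 0.09, adjusted p = 0.250), -0.13 with SAHA (-0.40 to 0.15, adjusted p = 0.431) and 0.18 with FK228 (-0.09 to 0.46, adjusted p = 0.248). On the second tested probe set the difference was -0.09 with largazole, 0.01 with SAHA and 0.20 with FK228, none of them called. The third was not tested and stood at 2.97 to 3.14. Both tested probe sets of ELK1 have names ending in _x_at, which marks probes that can match other transcripts, so the ELK1 level is uncertain.

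ELK3 was at 9.27 and 8.99 with largazole, 9.15 and 9.01 with SAHA and 8.56 and 8.32 with FK228, against 9.55 and 9.11 with vehicle. The vehicle arrays differed by 0.44, and only with FK228 did both arrays lie below both of them. With FK228 the difference was -0.89 ± 0.168 (SE, n = 2, adjusted p = 0.00300). It was -0.20 with largazole (95% confidence interval -0.59 to 0.19, adjusted p = 0.391) and -0.25 with SAHA (-0.64 to 0.14, adjusted p = 0.270).

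ETV6, a repressor with a self-associating domain, stood at 7.45 and 7.53 with largazole, 7.03 and 7.17 with SAHA and 6.81 and 6.78 with FK228, against 7.83 and 7.62 with vehicle. The arrays of each compound were below both vehicle arrays. The difference was -0.62 ± 0.101 with SAHA (SE, n = 2, adjusted p = 0.00169) and -0.92 ± 0.101 with FK228 (adjusted p = 0.000173). With largazole it was -0.23 and not called (95% confidence interval -0.47 to 0.0010, adjusted p = 0.105). ETV6 has 4 other probe sets, of which 1 was tested, at 4.40 to 4.79, and it was not called with any compound. The 3 not tested stood at 3.51 to 4.49. With all 5 averaged the ETV6 difference was -0.15 with largazole, -0.27 with SAHA and -0.35 with FK228.

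GABPA was at 8.65 and 8.46 with largazole, 8.83 and 8.17 with SAHA and 8.12 and 7.80 with FK228, against 9.12 and 8.75 with vehicle. Its arrays varied most within groups, by up to 0.66 between the SAHA arrays. The difference was -0.97 ± 0.229 with FK228 (SE, n = 2, adjusted p = 0.00872), -0.38 with largazole (95% confidence interval -0.91 to 0.15, adjusted p = 0.232) and -0.43 with SAHA (-0.96 to 0.10, adjusted p = 0.169). The FK228 call was lost when FK228 replicate 2 was left out (adjusted p = 0.0505) and when vehicle replicate 1 was left out (adjusted p = 0.0616). The SAHA value rested on single arrays. It was -0.76 without SAHA replicate 1 (adjusted p = 0.0271) but -0.10 without SAHA replicate 2 (adjusted p = 0.737), and -0.24 without vehicle replicate 1. The largazole value was -0.19 without vehicle replicate 1 and -0.57 without vehicle replicate 2, not called in either fit. The second probe set was tighter, at 6.13 and 6.07 with largazole, 6.23 and 6.14 with SAHA and 5.62 and 6.01 with FK228, against 6.59 and 6.59 with vehicle. It fell with all 3 compounds, by 0.49 with largazole (adjusted p = 0.0170), 0.40 with SAHA (adjusted p = 0.0364) and 0.77 with FK228 (adjusted p = 0.00154). With all probe sets averaged, GABPA was called lower with largazole (-0.43, adjusted p = 0.0194) and SAHA (-0.415, adjusted p = 0.0222).

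**Figure D3:**
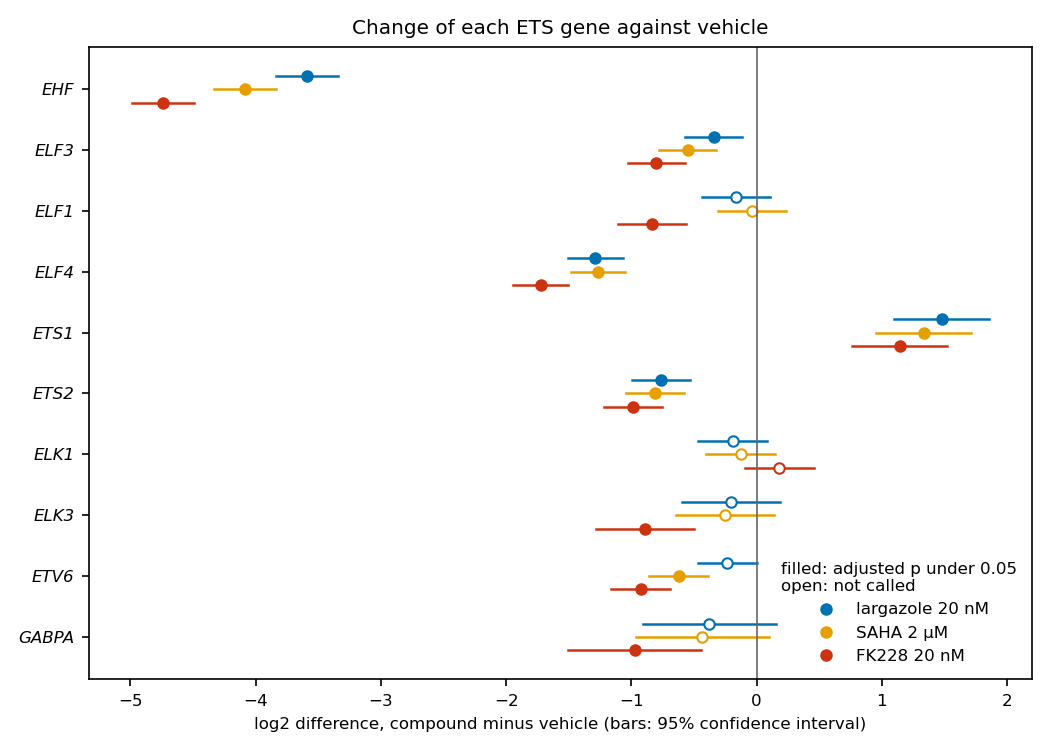
Log2 difference from vehicle (horizontal axis) of each ETS gene (vertical axis) with largazole, SAHA and FK228, with 95% confidence intervals as bars. Filled points passed an adjusted p under 0.05. EHF lies at -3.59 to -4.74, ETS1 alone lies above 0 with all 3 compounds and called, and for ELF1, ELK3 and GABPA the FK228 point alone is filled.

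Largazole and FK228 are both depsipeptides and were given at the same 20 nM, so their levels were compared directly, as the only pair at a matched dose. SAHA was given at a dose in another range, so its values stand beside theirs without a test. Of the 10 members, 6 were called higher with largazole than with FK228. Of all genes tested, 9.07% were called in this comparison, 4.88% higher and 4.19% lower with largazole. With the stricter filter described above a larger share of all genes was called, 1924 of 8759. In that fit 7 of the 10 members were called, 6 higher and 1 lower with largazole. Beside that larger share the contrast between the members and all genes was smaller. The log2 difference, largazole minus FK228, was 1.15 ± 0.106 for EHF (SE, n = 2 each, adjusted p = 0.00254), 0.67 ± 0.117 for ELF1 (adjusted p = 0.0182) and 0.69 ± 0.101 for ETV6 (adjusted p = 0.0109). It was 0.69 ± 0.168 for ELK3 (adjusted p = 0.0477), 0.46 ± 0.0982 for ELF3 (adjusted p = 0.0334) and 0.43 ± 0.0943 for ELF4 (adjusted p = 0.0343). For these 6 genes both largazole arrays lay above both FK228 arrays. The FK228 level of EHF was under the filter value, so the size of its difference is uncertain. The second ELF1 probe set also differed, by 1.01 ± 0.0955 (adjusted p = 0.00267), and the third ELF3 probe set by 0.43 (adjusted p = 0.0270). The second tested probe sets of the other genes were not called. The difference there was 0.33 for EHF (adjusted p = 0.260) and 0.16 for ELF3 (adjusted p = 0.45). It was 0.26 for ELF4 (adjusted p = 0.617) and 0.21 for ETV6 (adjusted p = 0.281). ELK3 had no second tested probe set.

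The other 4 members were not called between largazole and FK228. The difference was 0.33 for ETS1 (95% confidence interval -0.05 to 0.71, adjusted p = 0.251) and 0.59 for GABPA (0.06 to 1.12, adjusted p = 0.154). It was 0.23 for ETS2 (-0.0030 to 0.46, adjusted p = 0.200) and -0.37 for ELK1 (-0.65 to -0.10, adjusted p = 0.101). ELK1 alone had a negative value, with an unadjusted p of 0.0149. The count of 6 rests on few arrays. It was 3 without FK228 replicate 1 and 1 without FK228 replicate 2, largazole replicate 1 or largazole replicate 2, and with vehicle replicate 1 or vehicle replicate 2 left out it was 4. Of the 8 fits that left out an array, the EHF call held in 8 (adjusted p = 0.00716 to 0.0307). The ELF1 call held in 5 (0.0221 to 0.106), as did that of ETV6 (0.0164 to 0.0747). The ELF3 call held in 2 (0.0389 to 0.169), the ELK3 call in 2 (0.0378 to 0.244) and the ELF4 call in 0 (0.0501 to 0.168), while ELK1 was called in 2 (0.0478 to 0.363). With all probe sets of EHF averaged its difference was 0.26 and not called (adjusted p = 0.0773), and with those of ETV6 averaged its difference was 0.20.

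**Figure D4:**
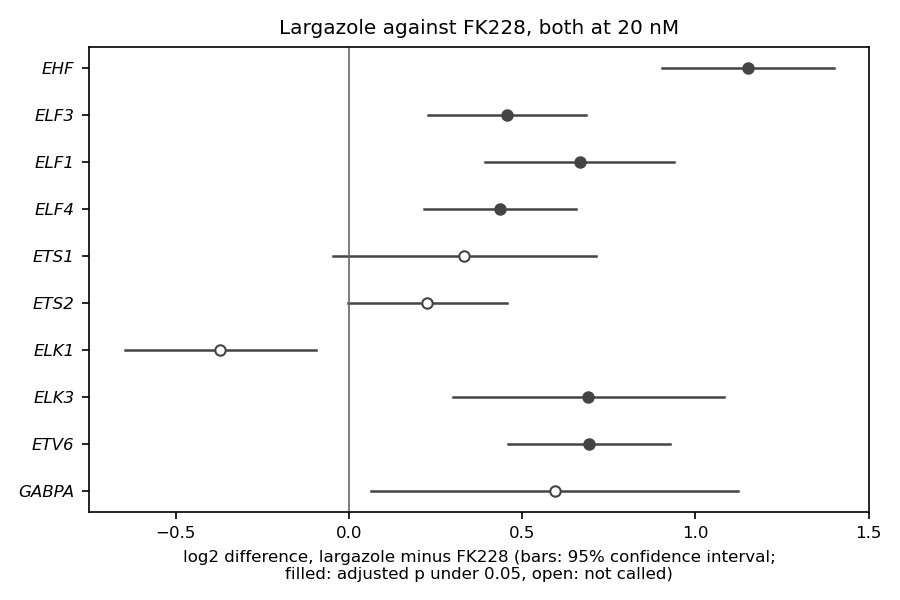
Log2 difference between largazole and FK228 (horizontal axis, largazole minus FK228, both at 20 nM) of each ETS gene (vertical axis), with 95% confidence intervals as bars. Filled points passed an adjusted p under 0.05. The 6 filled points all lie above 0, from 0.43 for ELF4 to 1.15 for EHF.

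The other 18 human ETS genes include 11 with a tested probe set. With largazole 3 rose and 4 fell, with SAHA 3 rose and 4 fell, and with FK228 3 rose and 5 fell. Their median log2 difference was -0.09, -0.30 and -0.36 in that order, beside 0.0016, -0.019 and 0.013 for all genes. The 7, 7 and 8 genes called of 11 stand beside 45.2%, 47.4% and 52.8% of all genes. ETV2, counted as lower with FK228, read 4.27 and 3.45 there against 4.70 and 4.92 with vehicle. It reached the filter value on the vehicle arrays and, barely, on a SAHA array, so its call adds no support. ETV7, a relative of ETV6 that also represses, is counted among the 3 higher genes with each compound. It read 6.44 and 6.15 with largazole, 5.48 and 5.23 with SAHA and 6.81 and 6.34 with FK228, against 2.82 and 2.98 with vehicle. It passed the filter through treated arrays alone, so its calls add no support and the size of the difference is uncertain. ETV3, a repressor, rose by 0.65 with largazole, 0.83 with SAHA and 0.65 with FK228, and ETV5, which responds to FGF and ERK signals, by 0.55, 0.63 and 0.67. ERF, a repressor held in check by ERK, changed by -0.80, -0.91 and -1.11 with largazole, SAHA and FK228. ELF2, a relative of ELF1, changed by -0.84, -0.66 and -1.003 in the same order, and ETV1, from the same branch as ETV5, by -0.50, -0.73 and -1.16. The blood factors SPI1, SPIB and SPIC and the endothelial factors ERG and FLI1 did not pass the filter, with group means of 2.28 to 4.12.

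Among 13 tested partners and regulators of ETS proteins, 1 rose and 7 fell with largazole, 1 rose and 6 fell with SAHA, and 2 rose and 8 fell with FK228. The 8, 7 and 10 genes called of 13 stand beside 45.2%, 47.4% and 52.8% of all genes. Their median log2 difference was -0.28, -0.08 and -0.42 in that order, beside 0.0016, -0.019 and 0.013 for all genes. GABPB2, which encodes an alternative partner subunit of GABPA, was lowest, at -1.35 ± 0.107 with largazole (SE, n = 2, adjusted p = 6.63e-05), -1.38 with SAHA and -1.47 with FK228. CREBBP, an acetyltransferase recruited by ETS1 and ELK1, changed by -0.64 with largazole, -0.74 with SAHA and -1.37 with FK228, and DAXX, a repressor that binds ETS1, by -0.56, -0.79 and -0.92. The name of the DAXX probe set ends in _x_at, so its level is uncertain. MRTFA, a cofactor of serum response factor, rose by 0.62, 0.52 and 0.77 with largazole, SAHA and FK228. SRF itself rose by 0.35 with FK228 (adjusted p = 0.0247) and was not called with largazole (0.07, adjusted p = 0.650) or SAHA (0.11, adjusted p = 0.432).

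Genes known as targets were described from fixed lists, which also hold genes driven by other factors. These lists too were chosen with earlier results of these data known. Of 11 tested targets of the ELK and SRF ternary complex, 9 were called higher with largazole, 8 with SAHA and 9 with FK228, and the rest were not called. Of all genes, 21.9%, 22.1% and 25.7% were called higher. Their median log2 difference was 0.69 with largazole, 0.87 with SAHA and 1.01 with FK228, beside 0.0016, -0.019 and 0.013 for all genes. FOS rose by 2.56 ± 0.0876 with largazole (SE, n = 2, adjusted p = 3.03e-06), 2.68 with SAHA and 3.39 with FK228. EGR1 rose by 1.30 with largazole, 1.21 with SAHA and 1.30 with FK228. EGR3, counted among the higher genes, read 5.27 and 5.79 with largazole, 5.42 and 4.71 with SAHA and 5.18 and 5.66 with FK228, against 4.27 and 3.73 with vehicle. It passed the filter through treated arrays alone, so its calls add no support. Over the same arrays ELK1 was not called, as given above.

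Of 8 tested GABP targets, 2 rose and 2 fell with largazole, 2 rose and 2 fell with SAHA, and 1 rose and 2 fell with FK228. The 4, 4 and 3 genes called of 8 lie near or under the 45.2%, 47.4% and 52.8% of all genes called. Their median log2 differences were -0.0036, 0.052 and 0.077, beside 0.0016, -0.019 and 0.013 for all genes. TFB2M, a mitochondrial transcription factor, changed by -0.82, -0.62 and -0.39 with largazole, SAHA and FK228, and SKP2, a ubiquitin ligase subunit of the cell cycle, by -0.45, -0.57 and -0.50. TFB1M, a mitochondrial ribosomal RNA methyltransferase, rose by 0.44, 0.37 and 0.50. TFAM, which packages mitochondrial DNA, rose by 0.36 with largazole (adjusted p = 0.0478) and 0.40 with SAHA, and stood at 0.32 with FK228 without a call (adjusted p = 0.0633). Apart from TFB2M and ATP5F1B, the tested genes of this list were read by probe sets ending in _x_at, so their levels are uncertain.

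The last list holds 13 tested genes with described ETS sites in epithelial or invasive cells. With largazole 3 rose and 5 fell, with SAHA 4 rose and 6 fell, and with FK228 3 rose and 6 fell. The 8, 10 and 9 genes called of 13 stand beside 45.2%, 47.4% and 52.8% of all genes. Their median log2 difference was -0.26 with largazole, -0.34 with SAHA and -0.0081 with FK228, beside 0.0016, -0.019 and 0.013 for all genes. PLAU, the urokinase protease, changed by -2.33 ± 0.141 with largazole (SE, n = 2, adjusted p = 2.21e-05), -3.01 with SAHA and -3.19 with FK228, where 1 of its arrays lay under the filter value. Its receptor PLAUR changed by -1.54 with largazole, -1.56 with SAHA and -1.99 with FK228, and TGFBR2, a TGF-beta receptor known as an ELF3 target, by -1.05, -1.40 and -2.54. PTGS2, the inducible cyclooxygenase, read 5.56 and 5.52 with largazole, 5.19 and 5.26 with SAHA and 4.41 and 4.48 with FK228, against 3.95 and 4.10 with vehicle. It is counted as higher with each compound, but it passed the filter through the largazole and SAHA arrays alone, and its FK228 and vehicle arrays all lay under the filter value, so its calls add no support. MMP9, a matrix protease, rose by 0.71 with largazole, 0.47 with SAHA and 0.34 with FK228. CLDN7, an epithelial claudin, rose by 0.40 with SAHA and 0.36 with FK228, and stood at 0.13 with largazole without a call (adjusted p = 0.382).

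**Figure D5:**
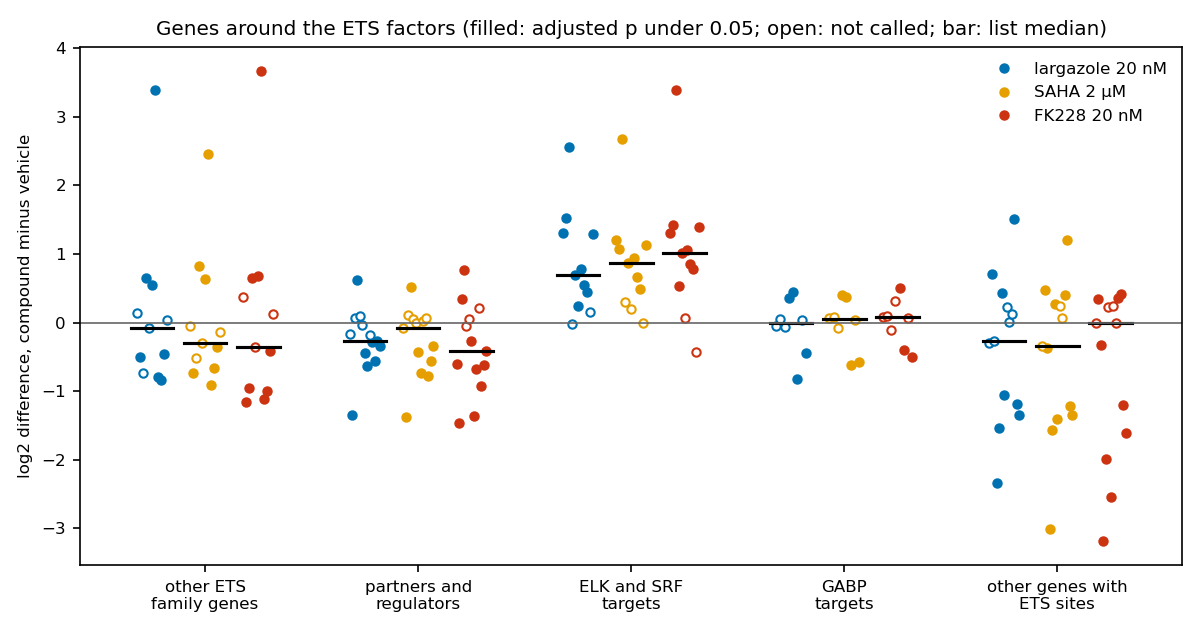
Log2 difference from vehicle (vertical axis) of the tested genes of 5 fixed lists (horizontal axis) with largazole, SAHA and FK228. Each point is 1 gene, filled where its adjusted p was under 0.05, and bars are list medians. Medians of the ELK and SRF targets lie at 0.69 to 1.01, and those of the GABP targets lie near 0.

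The genes with the nearest profile were found by the root mean square difference of the 3 log2 differences from vehicle over all tested genes. For EHF they were ITPRIPL2 (distance 0.24), MKX (0.44) and ZBED2 (0.51). Their differences with largazole, SAHA and FK228 were -3.85, -3.99 and -4.43 for ITPRIPL2, -4.08, -4.57 and -5.04 for MKX and -3.92, -4.24 and -3.94 for ZBED2. For ETS1 they were AGPAT4 (distance 0.014), GNG7 (0.031) and CSRP2 (0.056), with mean differences of 1.31, 1.31 and 1.28 beside 1.32 for ETS1. The likeness covers 3 comparisons that share the vehicle arrays.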

How the data were processed

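Gene expression was measured on 8 Affymetrix arrays of HCT116 cells, 2 per group. The authors deposited 1 table of log2 values per probe set, whose array medians are nearly equal. Per the submitters' processing notes, affy, RMA and limma were used, with no version, role or order, and the steps behind the values are otherwise not given in the sources used here. Of 54613 probe sets, 41091 have exactly 1 gene symbol in GEO's platform annotation, 1801 have several and 11721 have none. The 31 member probe sets are among the first.

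A limma model (version 3.58.1, R 4.3.3) took in all 8 arrays and gave each group its own mean, with empirical Bayes moderation (4 residual and 3.69 prior degrees of freedom) and Benjamini-Hochberg adjustment over the 28985 probe sets tested in each of 4 comparisons. The fit was tested on simulated data. With 2 arrays against 2, the smallest two-sided p of an exact permutation test is 0.333. Precision is set by the few arrays, and over all genes the 95% confidence limits lay a median of 0.24 from the log2 difference. Named genes are all members, up to 2 highest and 2 lowest called genes of each list per comparison with vehicle, and the 3 nearest profiles of the member with the lowest and of that with the highest mean change. Markers beside the results were named after their values were seen. Members and lists were chosen with earlier results of these data known. List genes without a tested probe set of exactly 1 symbol were not analysed here. Alternatives changed the filter (none, or 6.87), the prior (intensity trend, robust), the blocking by replicate, the scaling (ribosomal protein medians, quantiles), the probe sets (without those ending in _x_at or _s_at, or averaged per gene) and the arrays fitted (the 4 compared, or 1 left out). Other steps used Python 3.11.15 (pandas 2.3.3), and plots were drawn in matplotlib 3.10.9.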

Additional observations from a re-analysis of the deposited data

How the results depend on the processing

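Each member's 4 comparisons were fitted again under each alternative. Fits that changed the filter, the prior, the blocking or only arrays outside the comparison left each difference as it was. In those fits only the call could change, not the direction. Of 676 values, 618 kept their direction and their side of the threshold, 44 lost a call, 10 gained one and 4 changed sign. The sign changes were all of values not called: ELK3 with largazole without vehicle replicate 1 (0.018, range with 1 array left out -0.42 to 0.018), ELF1 with SAHA without SAHA replicate 2 (0.0048) or vehicle replicate 2 (0.10, range -0.17 to 0.10), and ELK1 with SAHA without SAHA replicate 1 (0.046, range -0.30 to 0.046). The counts of members called against vehicle stayed within 1.5 times those given. Between largazole and FK228 the 6 members called were 2 with the mean of all probe sets, 3 with no filter, 3 with only the 4 arrays compared and 1 to 5 with 1 array left out. The 1214 genes called there were 2024 with the intensity trend and robust prior, 562 with no filter, 624 with only the 4 arrays compared, 1864 with the replicate block, 1924 with the stricter filter and 99 to 992 with 1 array left out. The cause was not tested. No scaling moved the median of all genes by over 0.1 on the log2 scale. Without _x_at and _s_at probe sets ELK1 had no value.

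The labels do not say whether same-numbered arrays share more than a number, so whether the numbers pair the arrays cannot be told. The deviations of replicate 1 from its group mean correlated at 0.13 to 0.27 between groups. With the replicate block GABPA was called with largazole (adjusted p = 0.0399) and SAHA (adjusted p = 0.0241), the same differences as before, and between largazole and FK228 at 0.59 (adjusted p = 0.0293).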
